A study of Homo sapiens with 18 samples.

Results

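The genes described here code for the part of the extracellular matrix that is not collagen: elastic fibres, basement membranes and matrix proteoglycans. They were taken as a list of 38 gene symbols out of 38716 symbols in the deposited tables. By role, 7 belong to the elastic fibre core and its microfibrils, 5 are fibulins, 4 are latent TGF-beta binding proteins, 6 are laminin chains, 4 are nidogens, perlecan and agrin, 5 are versican and small leucine-rich proteoglycans, and 7 are fibronectin and other matrix proteins.

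All libraries came from IMR90, a fibroblast line from human fetal lung that stops dividing after many passages. Young cells were at low passage and untreated, old cells had reached replicative senescence at high passage, and ICM cells, also at low passage, had received inflachromene for 6 days. Inflachromene is a compound that binds HMGB1 and HMGB2, proteins of chromatin. Each condition had 3 replicates, and each replicate gave an mRNA-seq library and a Ribo-seq library (Ribo-seq sequences the stretches of mRNA that ribosomes shield from nuclease). The labels gave no ICM dose for these libraries, the days of treatment come from the study's text, and that text places the senescent data in earlier work, so that the run and the condition of the old libraries cannot be told apart. The methods call the replicates independent, but no label ties them to separate cultures, and p-values here measure the spread between these samples.

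Elastic fibres let lung and skin stretch and recoil. They form when tropoelastin is laid onto microfibrils of fibrillin, with fibulins as assembly factors, while latent TGF-beta binding proteins tether the growth factor to the same microfibrils. Basement membranes are sheets in which a laminin network is joined to collagen IV by nidogens and perlecan, and fibroblasts secrete much of both structures.

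Levels are given as CPM, the reads of a gene divided by all counted reads of its library and scaled to a common total. For mRNA-seq these were reads in the 5′ UTR, CDS and 3′ UTR of coding genes, between 7902427 and 14144455 per library. For Ribo-seq they were CDS reads, between 46239 and 1718521, and young replicate 1, old replicate 2 and ICM replicates 2 and 3 were the shallow ones. Changes are log2 values from edgeR's quasi-likelihood test ± the standard error (SE), and a gene was called at an adjusted p under 0.05 over all genes tested. All 38 genes passed the filter on low counts in mRNA-seq and 29 did in Ribo-seq. Lost calls are given below mostly for libraries left out in turn, and some calls were also lost in other settings. With DESeq2, another count test, 7 of 10 Ribo-seq calls of these genes were kept in ICM vs young. It kept 8 of 15 in old vs young and 11 of 18 in ICM vs old. Over all 4643 genes tested, calls went from 1236, 1685 and 623 to 688, 530 and 341 with DESeq2. The comparisons ICM vs young and old vs young share the 3 young libraries, so their values are set side by side below.

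The cells carried the fibroblast markers in every condition. The 8 markers listed for fibroblasts (COL1A1, COL1A2, COL3A1, PDGFRA, PDGFRB, THY1, VIM and S100A4) summed to between 27903.6 and 31712.3 CPM in young mRNA-seq, 24826.9 to 28285.2 in old and 10978.7 to 11219.7 in ICM, and all 8 fell in ICM vs young. The 6 epithelial markers reached at most 2.66 CPM together and the 5 leukocyte markers at most 1.60 in any mRNA-seq library. The 4 contractile smooth muscle markers fell from 248.1 to 258.2 CPM in young to 108.8 to 116.0 in ICM. The 5 endothelial markers summed to 53.9 to 102.3 CPM, with CDH5 at 0 reads in each condition. How far these shifts take part in the results below was not tested, and in bulk libraries fewer expressing cells and less RNA per cell cannot be told apart.

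In mRNA-seq, most of these matrix genes were lower in ICM than in young cells. Of the 38, 24 fell and 2 rose, against 36.1% of all 13173 genes tested that fell and 34.9% that rose. Their median change was -0.65, and that of all genes was -0.01. In old vs young, 16 of the 38 rose (32.4% of all genes did) and 15 fell (33.7%), the median being 0.13 against -0.01. For ICM vs old, 4 rose (30.7%) and 27 fell (32.6%), with a median of -0.89 against -0.01. Together the 38 genes held 1.405% ± 0.067 of young mRNA-seq reads (mean ± SD, n = 3), 1.528% ± 0.108 of old ones and 1.098% ± 0.029 of ICM ones. FN1 alone took 0.367% ± 0.026 of the young reads and 0.169% ± 0.005 of the ICM reads. The remaining genes took 1.038% ± 0.042 and 0.928% ± 0.027. By footprints the mean share of the set did not fall with ICM. The set held 2.002% ± 0.359 of young Ribo-seq reads, against 2.026% ± 0.192 with ICM and 2.525% ± 0.215 for old cells. By replicate it was 1.589%, 2.183% and 2.235% in young, where the shallow replicate 1 was lowest, and 1.832%, 2.032% and 2.215% in ICM. Of the 29 genes tested in Ribo-seq, 9 fell (12.9% of all genes did) and 1, NID2, rose (13.7%). The shares include NID2, and its part in them was not tested. Leaving FN1 out, the footprint shares of young and ICM cells came to 1.246% ± 0.214 and 1.437% ± 0.115.

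**Figure D1:**
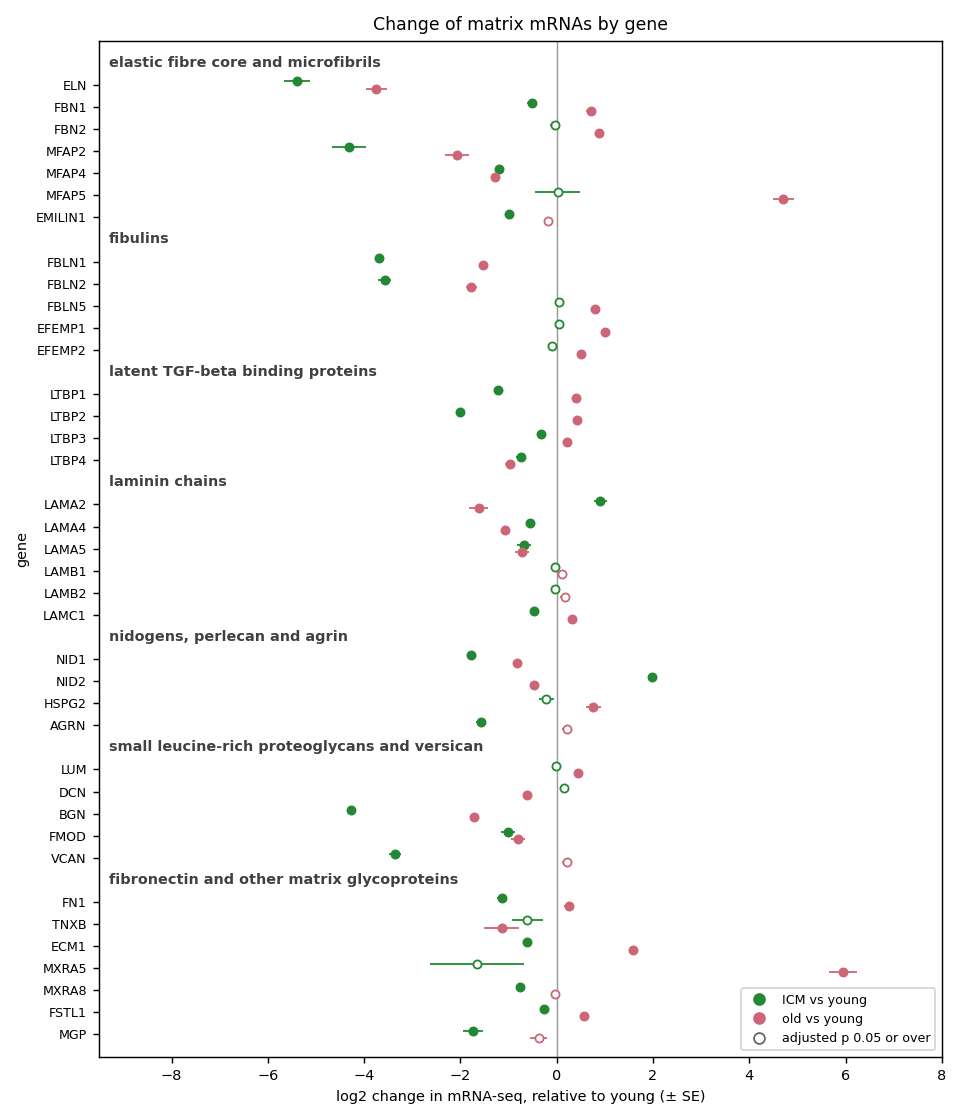
Change in mRNA level of each of the 38 genes, grouped by role, on a log2 scale with bars for the SE. Green points are ICM vs young and red points old vs young, each from 3 against 3 libraries, and open points were not called. The green points run from -5.40 for ELN to 1.99 for NID2, and the red ones from -3.75 for ELN to 5.94 for MXRA5.

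Among the 7 genes of the elastic fibre core, 5 fell and none rose in ICM vs young, while 3 rose and 3 fell in old vs young. Of all genes, 36.1% fell and 34.9% rose in ICM vs young, and 32.4% rose and 33.7% fell in old vs young. ELN codes for tropoelastin, the elastic polymer itself. Its mRNA stood at 18.98, 15.7 and 13.8 CPM in young, 0.507, 0.919 and 1.86 in old and 0.311, 0.377 and 0.443 in ICM. Every young library was above every old one, and every old one above every ICM library. ELN fell by 42.3-fold in ICM vs young (log2 -5.40 ± 0.27, adjusted p = 4.85e-14) and by 13.5-fold in old vs young (log2 -3.75 ± 0.22). It also fell in ICM vs old (-1.65 ± 0.49, adjusted p = 0.00536), but without old replicate 3 that change was -1.10 with an adjusted p of 0.0691. ELN did not pass the Ribo-seq filter: 42 CDS reads lay in it in young, 2 in old and 0 in ICM. The young level was 19.7-fold the old one (95% interval 5.14 to 168.4, counting error only) and at least 1.99-fold the ICM one, taking the floor of 3 counts over the group.

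MFAP2 and MFAP4 code for proteins that attach to microfibrils. The mRNA of MFAP2 was low throughout, at 3.80, 3.61 and 3.39 CPM in young, 0.710, 0.990 and 0.620 in old and 0.156, 0.0943 and 0.266 in ICM. The groups did not overlap, and ICM rested on 6 reads in all. Against young it fell in ICM (-4.31 ± 0.35) and in old (-2.07 ± 0.25), and the young level was 20.7-fold that of ICM by summed reads (95% interval 9.22 to 57.8). MFAP4 mRNA was 173, 192 and 162 CPM in young, 66.2, 68.01 and 69.5 in old and 77.6, 86.4 and 70.3 in ICM. It was highest in the young libraries and fell to like levels in ICM (-1.20 ± 0.08, adjusted p = 4.80e-12) and in old (-1.28 ± 0.08, adjusted p = 3.40e-12), with a change of 0.08 ± 0.08 between them that was not called. Its footprints were 184, 123 and 115 CPM in young, 61.6, 18.3 and 75.4 in old and 97.8, 63.3 and 108 in ICM. Young lay above both other groups, and in Ribo-seq the fall was called in old vs young (-0.80 ± 0.25) and not in ICM vs young (-0.42 ± 0.34, adjusted p = 0.389). The call was lost without young replicate 2 (-0.92), young replicate 3 (-0.99) or old replicate 1 (-0.80).

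MFAP5 and the fibrillins were not lower in old cells. MFAP5, which codes for another small microfibril protein, was at 0.253, 0.602 and 0.468 CPM in young, 11.6, 11.4 and 12.6 in old and 0.272, 0.534 and 0.606 in ICM. It was high only in the old libraries among these 9, and young and ICM overlapped. It rose by 26.2-fold in old vs young (log2 4.71 ± 0.23, adjusted p = 5.29e-14), and its change in ICM vs young was 0.02 ± 0.47, not called. Of the MFAP5 mRNA reads, 39.19% lay in the CDS in old, while all 16 reads in ICM lay in the 3′ UTR, as did 78.05% of the 14 reads in young. Ribo-seq placed 29 CDS reads in old and none in young or ICM, so that old was at least 10.3-fold the young level and at least 1.46-fold the ICM level.

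The fibrillins form the microfibril backbone. FBN1 mRNA was 286, 359.9 and 424 CPM in young, 559.8, 495 and 589 in old and 249, 266 and 249.6 in ICM. The groups did not overlap, with ICM lowest and old highest. It fell in ICM vs young (-0.51 ± 0.10, adjusted p = 7.71e-05), rose in old vs young (0.71 ± 0.10, adjusted p = 1.19e-06), and was 2.33-fold lower in ICM than in old. FBN2 also rose in old vs young (0.89 ± 0.10), and its ICM vs young value was -0.04 ± 0.10, not called. FBN1 footprints overlapped between all groups and no Ribo-seq comparison of it was called. EMILIN1, a glycoprotein at the interface of elastin and microfibrils, stood at 192, 212 and 256 CPM in young, 181, 157 and 212 in old and 106, 113 and 120.5 in ICM in mRNA-seq. ICM was below the other groups, which overlapped, and EMILIN1 fell in ICM vs young (-0.99 ± 0.10) with -0.17 ± 0.10 in old vs young, not called. In Ribo-seq it was 276, 251 and 230.0 CPM in young, 259, 201 and 298 in old and 156, 50.6 and 216 in ICM, with ICM replicate 2 the lowest, and it fell in ICM vs young (-0.81 ± 0.29, adjusted p = 0.0382) and in ICM vs old (-1.08 ± 0.29, adjusted p = 0.00914). Without ICM replicate 2 these were -0.57 and -0.81 and were not called, and the former was also lost without young replicate 2 (-0.86) or 3 (-0.96) and the latter without old replicate 3 (-0.95).

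The 5 fibulins split in old cells. FBLN1, which binds fibronectin and basement membrane proteins, was at 292, 328 and 301 CPM in young, 100.97, 89.4 and 107 in old and 23.2, 24.5 and 24.6 in ICM in mRNA-seq. Its Ribo-seq level was 239, 353 and 357 CPM in young, 117, 91.4 and 127 in old and 8.89, 88.6 and 129.8 in ICM. In mRNA-seq the groups were fully apart, and in Ribo-seq young was apart from the others, while ICM and old overlapped through ICM replicate 3 (6 reads). FBLN1 fell by 13.0-fold in ICM vs young mRNA (-3.70 ± 0.08, adjusted p = 2.67e-20) and by 2.90-fold in old vs young (-1.54 ± 0.07). In Ribo-seq it fell in ICM vs young (-2.94 ± 0.40, adjusted p = 7.60e-07) and in old vs young (-1.41 ± 0.23). Its Ribo-seq fall in ICM vs old (-1.53 ± 0.46) became -0.46 without ICM replicate 1 and was then not called, as it was without old replicate 1 (-1.53) or 3 (-1.43).

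FBLN2, a larger fibulin of elastic fibres and basement membranes, was 29.7, 30.5 and 34.6 CPM in young, 8.83, 7.99 and 9.39 in old and 2.26, 2.45 and 3.46 in ICM in mRNA-seq. These groups did not overlap either. The fall was 11.9-fold in ICM vs young (-3.57 ± 0.14) and 3.42-fold in old vs young (-1.77 ± 0.11). FBLN5, needed for elastic fibre assembly, rose in old vs young (0.79 ± 0.06), as did EFEMP1 (1.00 ± 0.07) and EFEMP2 (0.50 ± 0.06), which code for fibulins 3 and 4. In ICM vs young their values were 0.05, 0.04 and -0.11, none called. The Ribo-seq rise in old vs young was called for EFEMP1 (0.85 ± 0.19) and EFEMP2 (0.68 ± 0.22) and not for FBLN5 (0.54 ± 0.23, adjusted p = 0.0613). That of EFEMP2 was lost without young replicate 2 or 3 (both 0.59), old replicate 1 (0.55) or old replicate 3 (0.62).

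All 4 latent TGF-beta binding proteins fell in ICM vs young mRNA (36.1% of all genes did), and 3 of them rose in old vs young (32.4%). LTBP1 mRNA was 448, 491 and 529 CPM in young, 607, 585 and 622 in old and 214, 225 and 202 in ICM. The 3 groups did not overlap, with ICM lowest and old highest. It fell in ICM vs young (-1.22 ± 0.07, adjusted p = 5.41e-13), rose in old vs young (0.40 ± 0.07), and in Ribo-seq fell in ICM vs young (-0.88 ± 0.24) with 0.24 ± 0.20 in old vs young, not called. The Ribo-seq fall was lost without young replicate 3 (-0.72) or ICM replicate 1 (-0.69). LTBP2, the member of the family that does not hold latent TGF-beta, was 124, 142 and 164 CPM in young, 189, 159 and 194 in old and 34.2, 36.7 and 38.7 in ICM in mRNA-seq. ICM was the low group, and young and old overlapped through young replicate 3 and old replicate 2. It fell by 4.01-fold in ICM vs young (-2.00 ± 0.10, adjusted p = 2.40e-14). Its footprints were 147, 146 and 152 CPM in young, 192, 165 and 186 in old and 13.3, 37.98 and 43.3 in ICM. In Ribo-seq, too, ICM was below every other library (-2.68 ± 0.45 in ICM vs young, adjusted p = 1.75e-05), on 8 ICM reads in all.

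LTBP3 had a larger fitted fall in footprints than in mRNA in ICM cells. Its mRNA was 138, 142 and 150.2 CPM in young, 159, 139 and 173 in old and 113, 119 and 117 in ICM, and its footprints were 147, 67.1 and 73.3 CPM in young, 132, 146 and 126 in old and 26.7, 0 and 0 in ICM. The Ribo-seq values of ICM came from 6, 0 and 0 CDS reads, and the shallow ICM libraries held none. By mRNA the fall in ICM vs young was -0.33 ± 0.07, and by footprints -2.12 ± 0.58 (adjusted p = 0.00638). Summed reads put the young footprint level at 4.27-fold the ICM one (95% interval 1.93 to 11.8) and the old one at 7.63-fold (3.46 to 20.9). The mRNA rise of LTBP3 in old vs young (0.22 ± 0.07) was lost without old replicate 3 (0.15). LTBP4 fell in mRNA in both comparisons with young, at -0.74 ± 0.10 in ICM and -0.97 ± 0.11 in old.

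**Figure D2:**
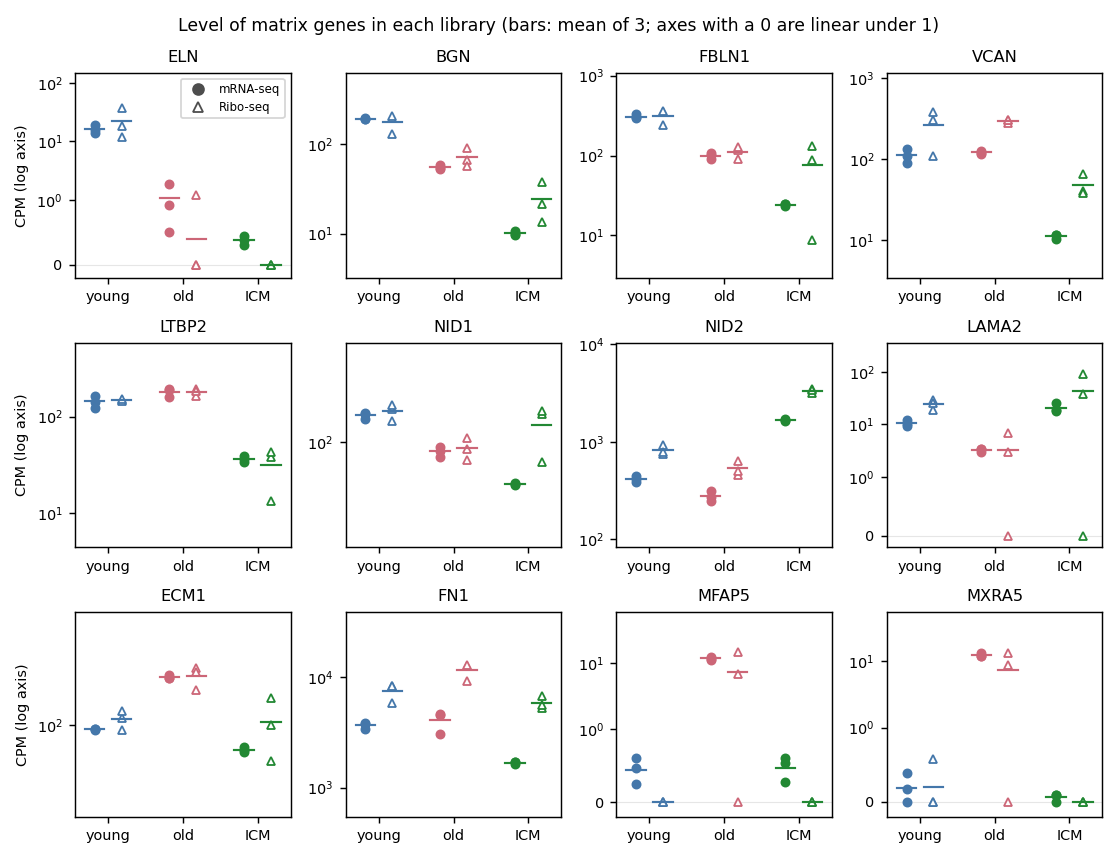
Level of 12 of the genes in each library, in CPM on a log axis that turns linear under 1 where a gene has a value of 0. Filled circles are mRNA-seq, open triangles Ribo-seq and bars the mean of the 3 replicates of a condition. NID2 stands highest in ICM in both assays, BGN and FBLN1 step down from young to old to ICM in their means, and MFAP5 and MXRA5 stand out in old mRNA-seq.

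The 6 laminin chains showed no common direction, with 1 rise and 3 falls in each comparison with young. Among all genes, 34.9% rose and 36.1% fell in ICM vs young, and 32.4% rose and 33.7% fell in old vs young. LAMA2 codes for the alpha chain of the laminin found around muscle and nerve. Its mRNA was 10.4, 9.52 and 12.4 CPM in young, 3.45, 2.97 and 3.45 in old and 17.9, 25.5 and 18.6 in ICM. The groups did not overlap, with old lowest and ICM highest. LAMA2 rose in ICM vs young (0.91 ± 0.14, adjusted p = 3.73e-06) and fell in old vs young (-1.62 ± 0.19, adjusted p = 1.17e-07), which put ICM 5.78-fold above old. It did not pass the Ribo-seq filter. Its footprints were 1, 20 and 44 CDS reads in young, 5, 0 and 4 in old and 20, 3 and 0 in ICM, and by summed reads young was 6.79-fold old (95% interval 3.37 to 15.5) and ICM 16.9-fold old (7.52 to 41.4). The shallowest ICM library held none of these reads.

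LAMA4, a laminin alpha chain of vessels and connective tissue, was 232, 257 and 257 CPM in young, 104, 109 and 118 in old and 171, 179 and 165 in ICM in mRNA-seq. Young was highest and old lowest, without overlap. It fell in ICM vs young (-0.56 ± 0.07) and further in old vs young (-1.08 ± 0.07). Its footprints were 129, 400.0 and 439 CPM in young, 134, 402 and 178 in old and 316, 355 and 454 in ICM. They spread widely within young and old, so that all groups overlapped, and the fall was called in old vs young (-1.04 ± 0.25) and not in ICM vs young (-0.13 ± 0.28). That call was lost without young replicate 2 (-0.90), young replicate 3 (-0.77) or old replicate 1 (-0.70). LAMA5 fell in ICM vs young (-0.68 ± 0.14) and also in old cells (-0.73 ± 0.15). LAMC1, the gamma chain that most laminins share, fell in ICM vs young (-0.48 ± 0.07) and rose in old vs young (0.31 ± 0.07). The beta chains LAMB1 and LAMB2 were not called in any mRNA-seq comparison, with ICM vs young values of -0.03 ± 0.07 and -0.03 ± 0.09.

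The nidogens, which cross-link laminin to collagen IV, moved in opposite directions in ICM cells. NID2 mRNA was 383, 415 and 445 CPM in young, 272, 249.5 and 313 in old and 1627, 1680.1 and 1717 in ICM. Every ICM library was above every young one, and every young one above every old one. NID2 rose by 3.97-fold in ICM vs young (log2 1.99 ± 0.08, adjusted p = 5.13e-16) and fell by 1.40-fold in old vs young (-0.48 ± 0.08, adjusted p = 9.08e-06). In Ribo-seq it was 919, 755 and 781 CPM in young, 460.3, 639.8 and 502 in old and 3186, 3431 and 3395 in ICM. The order of the groups was the same, again without overlap, with log2 changes of 2.05 ± 0.17 in ICM vs young (adjusted p = 1.22e-11) and -0.55 ± 0.17 in old vs young (adjusted p = 0.0119). The latter was lost without young replicate 3 (-0.60) or old replicate 1 (-0.50). NID2 was the one gene of the 29 tested that rose in Ribo-seq in ICM vs young.

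NID1 mRNA was 152, 164 and 168 CPM in young, 85.1, 77.8 and 92.5 in old and 48.5, 47.9 and 46.8 in ICM. Here young was highest and ICM lowest, without overlap. It fell by 3.45-fold in ICM vs young (-1.79 ± 0.07, adjusted p = 9.12e-16) and by 1.78-fold in old vs young (-0.83 ± 0.07). Its footprints were 147, 181 and 195 CPM in young, 108, 73.1 and 89.1 in old and 71.1, 165 and 173 in ICM. The ICM footprints spread across the range of both other groups, and their change from young, -0.76 ± 0.31, was not called (adjusted p = 0.0685), while that of old was (-0.78 ± 0.22), though not without young replicate 2 (-0.85) or 3 (-0.75).

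AGRN, the heparan sulphate proteoglycan agrin, was 294, 364 and 393 CPM in young, 392, 311 and 444 in old and 117, 118 and 126 in ICM in mRNA-seq. ICM was far below the other groups, which overlapped. It fell by 2.97-fold in ICM vs young (-1.57 ± 0.11, adjusted p = 8.76e-12), with 0.22 ± 0.10 in old vs young, not called. Its footprints were 312, 308 and 290.4 CPM in young, 404, 384 and 392 in old and 62.2, 177 and 368 in ICM. The ICM footprints spread from the lowest of all libraries to above young, and the fall in ICM vs young was -1.10 ± 0.33 (adjusted p = 0.0115). It was lost without ICM replicate 1 (-0.39), young replicate 2 (-1.06) or young replicate 3 (-1.12). HSPG2, which codes for perlecan, rose in old vs young in mRNA (0.76 ± 0.16) and in footprints (0.95 ± 0.19), though its mRNA groups overlapped. Its mRNA value in ICM vs young was -0.22 ± 0.16, not called.

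Among the proteoglycans, BGN codes for biglycan, a small leucine-rich protein that binds collagen and TGF-beta. BGN mRNA was 197, 189 and 189 CPM in young, 58.9, 52.1 and 53.5 in old and 9.88, 10.6 and 9.66 in ICM, and its footprints were 129, 193 and 205 CPM in young, 66.4, 91.4 and 56.5 in old and 13.3, 37.98 and 21.6 in ICM. In both assays every young library was above every old one and every old one above every ICM one, though the ICM footprints rested on 7 reads in all. BGN fell by 19.4-fold in ICM vs young mRNA (-4.28 ± 0.08, adjusted p = 2.25e-21) and by 3.28-fold in old vs young (-1.71 ± 0.07). Its footprints fell by 9.56-fold (-3.26 ± 0.45, adjusted p = 1.01e-06) and by 2.79-fold (-1.48 ± 0.23). The Ribo-seq fall in ICM vs old was called, but not with DESeq2 (-1.75), nor without old replicate 1 (-1.70) or ICM replicate 1 (-1.27).

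VCAN codes for versican, the large hyaluronan-binding proteoglycan of loose connective tissue. Its mRNA was 90.2, 110.1 and 134 CPM in young, 117, 120.1 and 126 in old and 10.4, 11.6 and 11.5 in ICM. Its footprints were 110.2, 307 and 384 CPM in young, 283, 302 and 309 in old and 39.99, 37.98 and 64.9 in ICM. ICM was below every young and old library in both assays, and young and old overlapped. VCAN fell by 10.2-fold in ICM vs young mRNA (-3.36 ± 0.12, adjusted p = 9.63e-17) and by 7.47-fold in footprints (-2.90 ± 0.38). In old vs young its values were 0.21 ± 0.09 in mRNA (adjusted p = 0.0518) and -0.02 ± 0.20 in footprints, neither called.

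FMOD, the collagen-binding fibromodulin, was 8.98, 8.11 and 8.999 CPM in young, 4.67, 4.17 and 5.14 in old and 4.20, 4.90 and 3.99 in ICM in mRNA-seq. Young was highest, and old and ICM overlapped. It fell in ICM vs young (-1.02 ± 0.14) and also in old cells (-0.81 ± 0.14). DCN, coding for decorin, fell in old vs young in mRNA (-0.61 ± 0.07) and in footprints (-0.53 ± 0.19), with 0.15 ± 0.07 in ICM vs young mRNA, not called. The footprint call of DCN was lost without young replicate 2 (-0.42) or 3 (-0.41) or old replicate 1 (-0.50) or 3 (-0.48). LUM, coding for lumican, rose in old vs young (0.45 ± 0.07) and had -0.01 ± 0.08 in ICM vs young, not called.

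Fibronectin, FN1, links cells to the matrix through integrins. Its mRNA was 3374, 3822 and 3809 CPM in young, 4638, 3066 and 4523 in old and 1725, 1713 and 1635 in ICM. ICM was the low group, and young and old overlapped through old replicate 2. FN1 fell by 2.21-fold in ICM vs young (-1.14 ± 0.11, adjusted p = 2.30e-09). Its rise in old vs young (0.25 ± 0.10, adjusted p = 0.0432) was kept in 7 of 15 alternative analyses, and was lost without young replicate 1 (0.20), 2 (0.28) or 3 (0.27) or old replicate 1 (0.14) or 3 (0.17). FN1 footprints were 5880.1, 8419.7 and 8376 CPM in young, 12621, 9231 and 12951 in old and 5226, 5672 and 6791 in ICM. Old footprints were above all others, and they rose in old vs young (0.71 ± 0.17, adjusted p = 0.000883), whereas ICM overlapped young (-0.39 ± 0.17, adjusted p = 0.0785).

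ECM1, a secreted glycoprotein of the dermis and vessels, was 94.02, 92.4 and 91.2 CPM in young, 272, 254 and 259 in old and 60.9, 64.7 and 59.1 in ICM in mRNA-seq. The groups did not overlap, with old highest and ICM lowest. It rose by 3.02-fold in old vs young (1.59 ± 0.06, adjusted p = 1.91e-15) and fell in ICM vs young (-0.61 ± 0.07, adjusted p = 2.80e-08). Its footprints were 91.9, 115 and 133 CPM in young, 315, 201 and 289 in old and 48.9, 101.3 and 173 in ICM. Old was again apart from the rest, with a rise of 1.36 ± 0.21 over young, while ICM overlapped young (-0.63 ± 0.36, not called).

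MXRA5 was nearly absent outside old cells. Its mRNA was 0, 0.176 and 0.387 CPM in young, 11.97, 11.8 and 13.3 in old and 0, 0.0943 and 0.0887 in ICM, which came from 435 reads in old, 6 in young and 2 in ICM. By summed reads old was 60.8-fold young (95% interval 27.7 to 166.5) and 214.1-fold ICM (58.9 to 1773.1). The rise in old vs young was 5.94 ± 0.29 on the log2 scale (adjusted p = 7.55e-14), and young and ICM overlapped. In Ribo-seq, 27 CDS reads lay in MXRA5 in old, 1 in young and 0 in ICM.

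MGP, the calcification inhibitor matrix Gla protein, was 8.61, 7.76 and 6.77 CPM in young, 6.49, 6.01 and 4.07 in old and 3.04, 1.51 and 2.31 in ICM in mRNA-seq. ICM was lowest and young highest, without overlap. It fell in ICM vs young (-1.74 ± 0.21, adjusted p = 1.75e-07), and -0.38 ± 0.18 in old vs young was not called (adjusted p = 0.0668). TNXB, coding for tenascin-X, was 0.759, 1.31 and 1.42 CPM in young, 0.457, 0.554 and 0.576 in old and 0.856, 0.644 and 0.887 in ICM. It rested on few reads, and its reads are uncertain because of a near-identical pseudogene copy. Old was lowest, and the fall in old vs young was -1.14 ± 0.36 (adjusted p = 0.00807). FSTL1 rose in old vs young (0.57 ± 0.06) and fell slightly in ICM vs young (-0.27 ± 0.06), and MXRA8 fell in ICM vs young (-0.75 ± 0.07).

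The stretches just upstream of 3 of these genes are shown. NID2 had the largest rise and BGN one of the deepest falls in ICM cells. ECM1 rose in old cells, though MXRA5 and MFAP5 rose more there. They were read from the GRCh37 genome and end at the base before the annotated gene. NID2 lies on chromosome 14, minus strand, BGN on chromosome X, plus strand, and ECM1 on chromosome 1, plus strand. The windows are chr14:52535778-52536027, chrX:152760188-152760437 and chr1:150480335-150480537, each written 5′ to 3′ on the gene's strand. Capitals mark matches, on either strand, to a TATA box (TATAAA), a GC box (GGGCGG), an AP-1 motif (TGANTCA) or a SMAD motif (CAGAC).
NID2: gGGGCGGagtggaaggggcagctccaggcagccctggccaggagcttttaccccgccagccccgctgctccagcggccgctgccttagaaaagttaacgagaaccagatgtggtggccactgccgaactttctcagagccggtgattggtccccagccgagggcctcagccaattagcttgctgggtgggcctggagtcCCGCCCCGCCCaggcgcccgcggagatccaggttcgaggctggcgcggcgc
BGN: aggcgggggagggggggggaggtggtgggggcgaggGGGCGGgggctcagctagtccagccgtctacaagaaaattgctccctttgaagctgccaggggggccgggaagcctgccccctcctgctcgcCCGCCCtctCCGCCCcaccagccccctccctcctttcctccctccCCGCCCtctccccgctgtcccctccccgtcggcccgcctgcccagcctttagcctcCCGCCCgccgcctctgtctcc
ECM1: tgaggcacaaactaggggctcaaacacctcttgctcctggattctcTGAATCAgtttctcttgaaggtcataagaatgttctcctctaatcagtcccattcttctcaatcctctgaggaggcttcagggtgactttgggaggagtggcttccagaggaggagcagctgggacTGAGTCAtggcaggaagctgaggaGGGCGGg

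In these printed stretches NID2 and BGN showed only GC box matches, and ECM1 held 2 AP-1 matches and 1 GC box match. Shares over many genes were counted in another window, the 250 bases before the start of 1 chosen transcript per gene, which for some genes lie partly or wholly inside the annotated gene. That window of ECM1 runs past the printed stretch and held 1 TATA box and 1 SMAD match besides. Among the windows of all 38 genes, 28 (73.7%) held a GC box, 16 (42.1%) a SMAD motif, 3 (7.9%) a TATA box and 1 (2.6%), that of ECM1, an AP-1 motif. Of the windows of all 19856 genes, the shares were 59.2%, 35.9%, 9.3% and 4.7%. The median GC content was 69.8% for these genes and 63.2% for all. The windows of MXRA5 and MFAP5, which rose more in old cells than ECM1, held none of these motifs. A match says only that these letters occur in the window.

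Per length of coding sequence, the order of the genes also shifted. Levels here are RPKM computed from CDS reads, coding length and the CDS total of the library (mean ± SD, n = 3). In young mRNA-seq, DCN at 1668.5 ± 51.8 was the most abundant, before FSTL1 at 1213.1 ± 12.4 and FN1 at 701.1 ± 60.6. In old, FSTL1 at 1690.7 ± 29.5 stood above DCN at 1063.4 ± 117.0. NID2 was at rank 12 of the 38 in young (143.2 ± 12.7) and rank 13 in old (99.4 ± 11.7), and at rank 3 in ICM, where its 592.5 ± 16.5 stood above FN1 at 331.1 ± 5.30. In ICM footprints, NID2 (809.7 ± 32.4) and FN1 (794.1 ± 109.1) did not differ beyond their spread, nor did DCN (1788.5 ± 601.6) and FSTL1 (1706.7 ± 261.3) in young footprints. ECM1 moved from rank 17 in young mRNA-seq (78.8 ± 1.08) to rank 8 in old (232.8 ± 5.91).

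Genes called in footprints were also called in mRNA. Of the 29 genes tested in Ribo-seq in ICM vs young, 9 fell (12.9% of all 4643 genes did) and 1 rose (13.7%). In old vs young, 8 rose (19.3%) and 7 fell (17.0%), and in ICM vs old 3 rose (5.79%) and 15 fell (7.62%). The median changes were -0.20, 0.27 and -0.66, against 0.00, 0.02 and -0.02 for all genes. In ICM vs young, the 10 genes with a Ribo-seq call had an mRNA-seq call of the same sign as well, and a further 10 of the 29 were called in mRNA-seq alone. In old vs young, 15 were called in both assays and 8 in mRNA-seq alone, and in ICM vs old 18 and 6. None was called in Ribo-seq alone in these 3 comparisons. In the same order, 9357, 8709 and 8338 of all 13173 genes were called in mRNA-seq. The overlap of calls between the assays was not counted over all genes, so that of these genes has no share to stand beside.

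**Figure D3:**
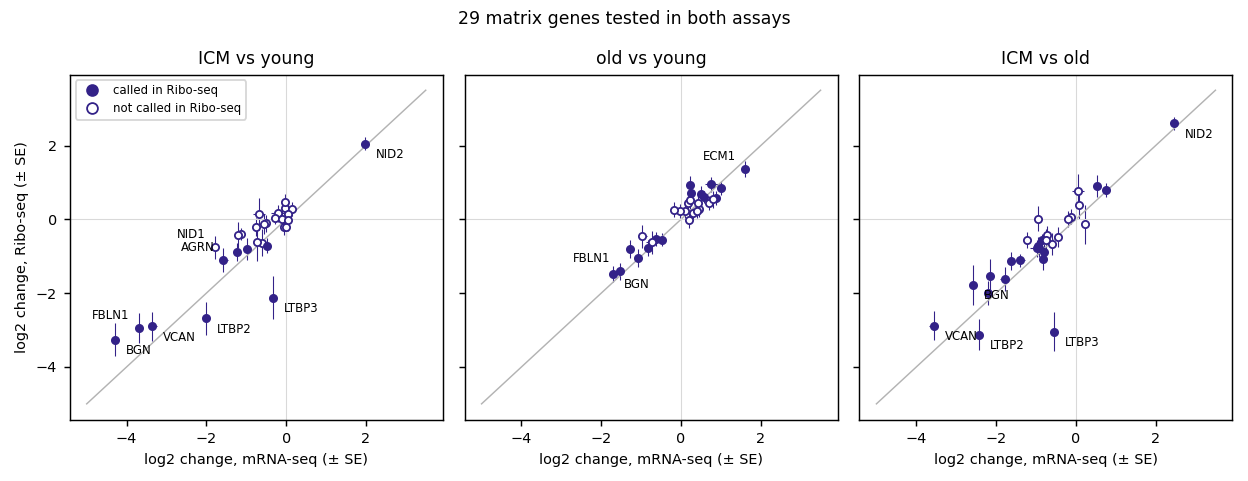
Change in footprints (vertical) against change in mRNA (horizontal) of the 29 genes tested in both assays, on log2 scales, in 1 panel for each comparison. Filled points were called in Ribo-seq. NID2 lies far to the upper right in ICM vs young, at 1.99 and 2.05, and BGN, FBLN1 and VCAN far to the lower left.

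Footprints relative to mRNA, or translational efficiency, were tested as the interaction between assay and condition. In ICM vs young, 1 of the 29 genes was called (2.45% of all 4618 genes). FN1 was higher by 0.77 ± 0.17 (adjusted p = 0.00545), where its mRNA fell and its footprints were not called. The call was lost when any 1 of the 6 young and ICM lysates was left out, with log2 values from 0.47 to 0.75, and with the deepest pairs alone (0.42). In old vs young none was called in edgeR (1.45% of all genes) or DESeq2. There, 3 of the 29 had an unadjusted p under 0.05 in edgeR, as did 605 of all 4618 genes. In ICM vs old, LTBP3 was called (0.26% of all genes), at -2.50 ± 0.57 (adjusted p = 0.0378), which rests on the 6 ICM reads above and was lost without old replicate 1 (-2.48) or 3 (-2.59). For LTBP3 in ICM vs young the value was -1.77 ± 0.62, not called (adjusted p = 0.120). In the same order of comparisons, the median change of the 29 was 0.35, 0.16 and 0.19, beside 0.06, 0.05 and 0.00 for all genes.

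Some libraries stood apart. Genes with mRNA almost only in ICM (SLCO2B1, AKR1B10, AKR1B15, SPP1 and AKR1C4) summed to 736.4 to 1084.5 CPM in ICM Ribo-seq and to 7.57 to 17.1 in the deeper young and old libraries, but to 110.5 in young replicate 1 and 109.9 in old replicate 2, from 6 reads each. With only the 2 deepest Ribo-seq libraries of each condition, all 10, 15 and 18 Ribo-seq calls of ICM vs young, old vs young and ICM vs old were kept. The counts, in the same order, went to 16, 21 and 20 of 31 genes tested. Calls over all genes rose as well, from 1236, 1685 and 623 of 4643 tested to 1865, 2609 and 957 of 8007. In mRNA-seq, the 10 genes with at least 8000 exonic bases (FBN1, FBN2, LTBP2, LAMA2, LAMA5, HSPG2, VCAN, FN1, TNXB and MXRA5) had a median log2 level of -0.44 in young replicate 1 and 0.33 in young replicate 3, relative to the other replicates of the condition. It was -0.20 in old replicate 2, 0.16 in old replicate 3 and between -0.07 and 0.06 in ICM. The part of these shifts in the changes of long genes was not tested.

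Other genes of the same structures, from lists beside the 38, are given by their mRNA counts. Of 17 further elastic fibre genes tested, 4 rose and 9 fell in ICM vs young, and 9 rose and 6 fell in old vs young. Among all 13173 genes tested, 34.9% rose and 36.1% fell in ICM vs young, and 32.4% rose and 33.7% fell in old vs young. The mean CPM of MFAP3L (± SD, n = 3) was 0.314 ± 0.120 in young cells, 2.98 ± 0.742 in old ones and 2.29 ± 0.706 with ICM, with the largest rise of the list in each comparison with young (2.85 and 3.35). ADAMTS6, a secreted metalloproteinase, fell most in ICM vs young (-3.27 ± 0.14), and TGFB3 fell most in old vs young (-1.61 ± 0.21).

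Of 17 further basement membrane genes, 5 rose (34.9% of all genes did) and 8 fell (36.1%) in ICM vs young, and 11 rose (32.4%) and 5 fell (33.7%) in old vs young. LAMA3, another laminin alpha chain, was at 17.5 ± 1.30 CPM in young cells and at 113 ± 4.25 in ICM (2.65 ± 0.08). COL15A1, a collagen of the basement membrane zone, fell most in both, from a young level of 206 ± 12.3 CPM to 28.7 ± 3.92 in old and 9.66 ± 1.22 in ICM.

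Of 17 further proteoglycan core proteins, 7 rose and 8 fell in ICM vs young, where the shares of all genes were 34.9% and 36.1%. Of the same 17, 5 rose and 6 fell in old vs young, against 32.4% and 33.7% of all genes. PODN, a small leucine-rich proteoglycan, fell from a young level of 45.8 ± 4.12 CPM to 4.88 ± 0.620 in ICM, and its old level was 47.6 ± 1.57. The glypican GPC4 rose most in old vs young (2.52 ± 0.15) and GPC2 fell most (-2.46 ± 0.28). GPC5 had the largest rise in ICM vs young (3.56 ± 0.42), from 6 reads in young to 90 in ICM.

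Of 33 enzymes that make glycosaminoglycan chains, 15 rose and 10 fell in ICM vs young, beside 34.9% and 36.1% of all genes, and 19 rose and 9 fell in old vs young, beside 32.4% and 33.7%. HAS2, a hyaluronan synthase, fell from a young level of 18.8 ± 1.19 CPM to 1.21 ± 0.179 in ICM (-3.96 ± 0.16). CSGALNACT1, which starts chondroitin sulphate chains, rose most with ICM (1.94 ± 0.10). In old vs young, EXTL1 rose most (3.49 ± 0.19) and the sulphotransferase CHST15 fell most (-2.81 ± 0.20).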

How the data were processed

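Ribo-seq and mRNA-seq of IMR90 cells were analysed in 18 libraries, 3 replicates of each of 3 conditions in each of 2 assays, grouped by the sample titles. The authors deposited estimated counts of reads per gene symbol and gene region, not scaled to depth. The aligner and annotation of these tables are not given in the sources used here. The submitters' processing notes name STAR 2.6.0c, featureCounts, DESeq2, deepTools and GRCh37 without saying for which data. Between 14.06% and 23.21% of the values of a library were not whole, and counts were rounded.

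For Ribo-seq the CDS was counted, and for mRNA-seq the CDS with both UTRs. Each assay was fitted with edgeR 4.0.16 in R 4.3.3 (quasi-likelihood F test, TMM scaling, filterByExpr, all 9 libraries), with two-sided p-values adjusted by the Benjamini-Hochberg method over 13173 genes in mRNA-seq and 4643 in Ribo-seq. Translational efficiency was the interaction of assay and condition over 18 libraries and 4618 genes, with the lysate as a block, since the methods state that each lysate served both assays. The study's anota2seq was not used. Alternatives were DESeq2 1.42.0, other scaling, filters, thresholds and blocks, thinning, and leaving out each library. The fits were tested on simulated counts.

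Values in every library are given for genes called with an absolute log2 change of at least 1 in either assay, or called in translational efficiency. Others are given by range and counts, and of each further list the called genes with the largest rise and fall, of which not every one is reported here. The genes and lists were chosen with earlier results of these data known. Intervals of read ratios cover counting error only. Sequences and gene positions came from GRCh37 and its GENCODE annotation.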

Additional observations from a re-analysis of the deposited data

Results flagged for a closer look

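A pair of results was noted because the change in footprints differed from the change in mRNA by a test of that difference. FN1 in ICM vs young differed by 0.77 ± 0.17 on the log2 scale (edgeR, adjusted p = 0.00545), with mRNA lower by 1.14 and not so far in footprints. LTBP3 in ICM vs old differed by -2.50 ± 0.57 (edgeR, adjusted p = 0.0378). That value rested on 6 CDS reads in ICM replicate 1 and on 0 in ICM replicates 2 and 3, against 220, 8 and 74 in old. Neither call was kept under every alternative, and their cause was not tested.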

How the results depend on the processing

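No change of direction occurred among the 133 called gene results under any alternative. Of 1953 alternative values, 1777 stayed called and 176 did not. Some of these values come from the main fit itself, read at an adjusted p under 0.15 or an absolute log2 change over 0.6. Neither reading can change a direction, and the former cannot lose a call. In mRNA-seq, 20 of 26 calls were never lost in ICM vs young, 21 of 31 in old vs young and 27 of 31 in ICM vs old. In Ribo-seq these were 6 of 10, 3 of 15 and 6 of 18. Ribo-seq libraries held 46239 to 1718521 reads and mRNA-seq libraries 7902427 to 14144455.

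The number of the 38 genes called in mRNA-seq was 31 in old vs young and 18 with mRNA-seq thinned to Ribo-seq depth, where only 28 of the 38 were tested (22 of the 31 called genes, of which 17 were still called). Over all genes, calls went from 8709 of 13173 tested to 2550 of 5327. Leaving out 1 library gave 26 to 27 in ICM vs young, 29 to 34 in old vs young and 31 to 32 in ICM vs old. Of all genes, 8814 to 9059, 8058 to 8509 and 7664 to 8139 were then called. In Ribo-seq, the 10 of ICM vs young became 4 when thinned to the shallowest library (21 genes tested, 29 without thinning). With the 2 deepest libraries of each condition they became 16 (31 genes tested). Over all genes, 1236 of 4643 became 270 of 1105 when thinned and 1865 of 8007 with the deepest libraries. The 15 of old vs young became 8 with DESeq2, 23 with only the groups compared and 3 when thinned. In the same order, the 1685 of all 4643 genes became 530, 3142 of 7521 and 167 of 1105. The 18 of ICM vs old became 11 with DESeq2 and 7 when thinned, where the 623 of all 4643 genes became 341 and 187 of 1105. Leaving out 1 library gave 6 to 15, 7 to 18 and 9 to 20. Calls over all genes were then 619 to 1758, 516 to 2160 and 332 to 924, of 3909 to 7323 tested. For the 38 genes, the lowest values came without young replicate 3 (6 for ICM vs young, 7 for old vs young), and without old replicate 3 (9 in ICM vs old). Without young replicate 2 or old replicate 1, old vs young had 8, and without old replicate 1, ICM vs old had 10.

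In translational efficiency, the 1 gene of ICM vs young became 3 at an adjusted p under 0.15 and 0 with no filter, with thinned mRNA-seq, or with the 2 deepest libraries, and 0 to 1 without 1 library. Over all genes, the 113 calls of 4618 tested became 318 at 0.15 and 139 of 13607 with no filter. They were 64 of 3973 with thinned mRNA-seq and 164 of 7966 with the deepest libraries. Old vs young had 0, 1 at 0.15 and 1 with no replicate block, and 0 to 0 without 1 library. Over all genes these were 67, 155 at 0.15 and 462 with no replicate block. The 1 gene of ICM vs old became 0 with DESeq2, with CDS reads only, with thinned mRNA-seq or with the 2 deepest libraries, and 0 to 1 without 1 library. FN1 was lost without each library in turn, where the 1 left without ICM replicate 1 was another gene. The cause of these changes was not tested, beyond the fewer reads or libraries that thinning and leaving out give.

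No label ties samples of different conditions that have the same replicate number. Their deviations from the group means correlated between -0.056 and 0.103 in mRNA-seq and between 0.005 and 0.056 in Ribo-seq. Between the mRNA-seq and Ribo-seq libraries of the same lysate, a known pairing, the correlation was also only -0.080 to 0.136. It therefore cannot tell whether the replicate numbers mark a pairing. With a replicate block, 27, 35 and 33 genes were called in mRNA-seq and 8, 10 and 15 in Ribo-seq, in ICM vs young, old vs young and ICM vs old. Of all 13173 genes in mRNA-seq, 9407, 8791 and 8398 were called with the block. Of all 4643 in Ribo-seq, 741, 653 and 418 were, against 1236, 1685 and 623 without it.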
